A study of Saccharomyces cerevisiae with 12 samples.

Results

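The genes described here encode the Atg1 initiation complex and the proteins that move Atg9, the machinery that starts an autophagosome in budding yeast. They are 10 genes of the 6660 features in the deposited count table, chosen by their systematic names as ATG1, ATG13, ATG17, ATG29, ATG31, ATG11, ATG41, ATG9, ATG2 and ATG18. Messenger RNA was sequenced from 3 strains of the diploid laboratory line BY4743, with 4 libraries each: a strain without ATG41 (atg41Δ, named icy2 in the files after the older gene name ICY2), a strain without ATG1 (atg1Δ) and the wild type (WT). All cultures were grown with ample zinc, washed and then held for 8 h in medium short of zinc. The deletion strains and the WT thus share this treatment, and the level of the zinc-responsive gene ZRT1 in each is given below. The labels do not say whether each deletion strain was 1 clone. They also leave unsaid whether the 4 libraries per strain were grown apart, so each p-value rests on a spread among libraries that may be partly technical. ATG1 and ATG41 were read only where they were not deleted.

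Autophagy wraps cytoplasm in a double membrane and delivers it to the vacuole for breakdown. On starvation the kinase Atg1 and its activator Atg13 join the scaffold of Atg17, Atg29 and Atg31, while Atg11 serves as the scaffold for selective cargo. Atg9 is the membrane protein whose vesicles seed the new membrane, Atg2 passes lipid into that membrane together with the lipid-binding protein Atg18, and Atg41 binds Atg9 and is needed for its normal movement.

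The libraries held 9623157 to 11247182 expected counts, and all 10 genes passed the filter on low counts, which left 6195 genes to test. The deleted genes followed the labels: ATG41 had 1 count in replicate 1 of atg41Δ and 0 in its other libraries, and ATG1 had 0 in every atg1Δ library. ZRT1, the zinc transporter induced by zinc shortage, was at 7851 to 8930 CPM (counts scaled to a common library size with TMM factors, not per gene length) in atg41Δ, 14830 to 15830 CPM in atg1Δ and 13750 to 15180 CPM in WT. It was thus lower in atg41Δ than in WT (log2 fold change -0.81, edgeR adjusted p = 3.3e-08, called under all 20 alternatives tried), and the part of this difference in the results for atg41Δ was not tested. Of 8 mating-type specific genes that a diploid represses, 6 passed the filter, and 5 of these were under 20 CPM in every library, while SAG1, the alpha agglutinin gene, reached 71.2 to 96.7 CPM. In atg41Δ against WT, 2 of the 6 were called higher (BAR1 and SAG1) and 3 lower (STE2, STE3 and MF(ALPHA)1) at an edgeR adjusted p under 0.05. There 65.9% of all genes were called. The MF(ALPHA)1 call held under 15 of 19 alternatives. In atg1Δ against WT 0 of the 6 were called, where 3.73% of all genes were. Replicate 1 of atg1Δ was the lowest atg1Δ library for 7 of the 9 genes of the set read there. Some genes outside the set shared this, but the share of all genes that did was not counted. Replicate 1 was also lowest for the autophagy gene ATG19 (229.8 CPM, the others 343.7 to 364.7 CPM). The same held for the vacuolar proteinase gene PRB1 (553.7 CPM, the others 945.3 to 1149 CPM), but not for ATG10 or ATG27. In RNA from whole cultures, fewer cells with a transcript and less transcript per cell cannot be told apart.

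**Figure D1:**
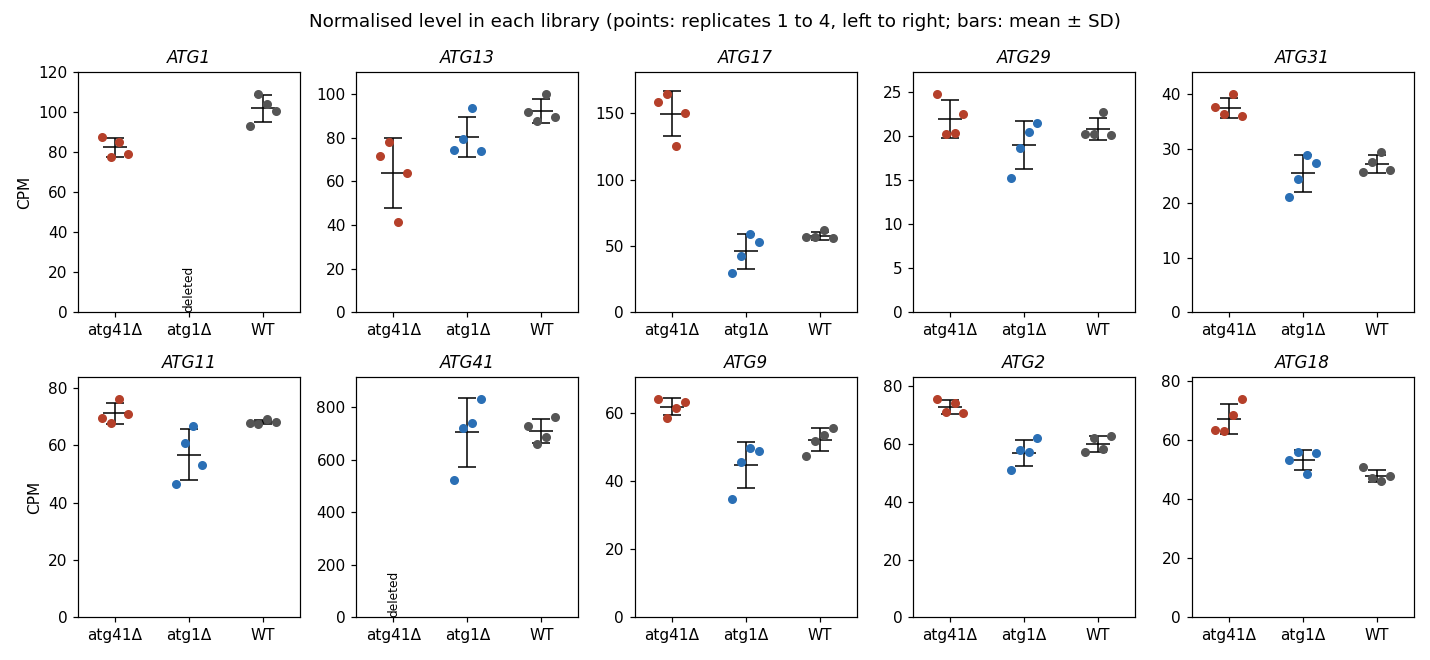
CPM of each of the 10 genes (vertical axes, each from 0) in the 4 libraries of atg41Δ, atg1Δ and WT, with the mean ± SD as bars. ATG17 in atg41Δ lies between 125.6 and 164.8 CPM, above all other libraries, and replicate 1 of atg1Δ is the lowest atg1Δ library for 7 of 9 genes.

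Loss of ATG41 was accompanied by higher transcripts of the scaffold gene ATG17 and, by less, of ATG31, ATG18, ATG2 and ATG9, and by lower transcripts of the kinase gene ATG1 and of ATG13, whose product activates the kinase. Of the 9 intact genes 5 were higher in atg41Δ than in WT, 2 were lower and 2 did not pass (edgeR quasi-likelihood test, Benjamini-Hochberg adjusted p under 0.05). In that comparison 65.9% of all genes tested passed, 29.9% as higher and 35.9% as lower, so a call by itself is common there. The median log2 fold change was 0.25 for the 9 genes and -0.04 for all genes.

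Loss of ATG1 gave no call among them. None of the 9 genes intact in atg1Δ passed against WT in edgeR, where 3.73% of all genes did, 0.387% as higher and 3.34% as lower. DESeq2 called 0 of them too, and 396 of 6195 genes in all. With so few genes called, 0 of 9 is near the share of all genes. An unadjusted edgeR p under 0.05 was found for 3 of the 9 (ATG11, ATG9 and ATG18) and for 1313 of the 6195 genes. Set directly against atg1Δ, atg41Δ had 6 of the 8 genes intact in both higher, 0 lower and 2 not passing, where 63.9% of all genes passed, 31.0% as higher and 33.0% as lower. These 3 comparisons share libraries, so they are not independent of each other.

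**Figure D2:**
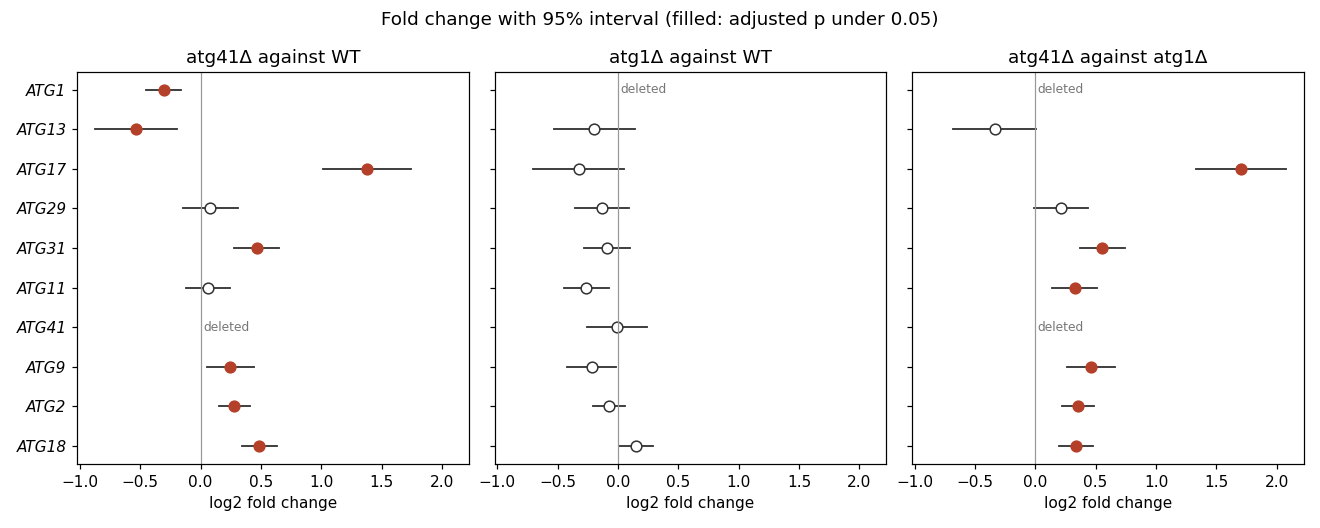
Log2 fold change (horizontal axis) of each gene with its 95% interval in the 3 comparisons, filled where the edgeR adjusted p was under 0.05. ATG17 is the gene farthest from 0 in the panels with atg41Δ (1.38 and 1.70), and no point is filled in atg1Δ against WT.

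The kinase module comes first in the pathway. ATG1 (YGL180W, chromosome VII, 160065 to 162758, plus strand, assembly R64) encodes the protein kinase. It had 87.4, 77.3, 85.2 and 79.1 CPM in the atg41Δ libraries, against 93.2, 109.1, 104.2 and 100.7 CPM in the WT libraries. Every atg41Δ library was below every WT library. The log2 fold change was -0.31 ± 0.06 (SE, n = 4 per strain, edgeR adjusted p = 0.00139), a level 0.808 times that of WT.

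ATG13 (YPR185W, chromosome XVI, 907218 to 909434, plus strand) encodes the subunit that binds and activates Atg1 and is a target of the nutrient kinase TORC1. It had 71.7, 77.9, 41.3 and 63.9 CPM in atg41Δ, 74.5, 79.5, 93.7 and 74.0 CPM in atg1Δ, and 91.7, 87.8, 100.1 and 89.3 CPM in WT. All atg41Δ libraries were below all WT libraries, with replicate 3 lowest, while the atg1Δ range overlapped both. ATG13 fell by 0.53 ± 0.16 on the log2 scale in atg41Δ against WT (edgeR adjusted p = 0.00977), and without replicate 3 of atg41Δ the change was -0.37 ± 0.09 (edgeR adjusted p = 0.00268). The difference of atg41Δ from atg1Δ was -0.34 with a 95% interval of -0.68 to 0.01 and did not pass (edgeR adjusted p = 0.0786). It passed after each library's trend with coding length and base composition was removed (-0.40, edgeR adjusted p = 0.0463) and without replicate 2 of atg41Δ (-0.45, edgeR adjusted p = 0.0269). In atg1Δ against WT it was -0.20, with an interval of -0.53 to 0.14.

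The ternary scaffold held the gene with the largest change of the 10. ATG17 (YLR423C, chromosome XII, 971917 to 973170, minus strand) encodes the long curved protein on which the starvation complex is built. It had 158.4, 164.8, 125.6 and 150.4 CPM in atg41Δ, 29.3, 42.2, 59.1 and 52.9 CPM in atg1Δ, and 56.8, 56.4, 62.1 and 55.6 CPM in WT. The lowest atg41Δ library was above the highest library of either other strain. ATG17 rose 2.60-fold in atg41Δ against WT (log2 fold change 1.38 ± 0.17, edgeR adjusted p = 1.78e-05) and 3.26-fold against atg1Δ (1.70 ± 0.17, edgeR adjusted p = 3.95e-06). In atg1Δ against WT it did not pass (-0.33, 95% interval -0.70 to 0.05), and without replicate 1 of atg1Δ that value was -0.16.

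A gene beside ATG17 moved with it. ATG17 and SPP382, which encodes a splicing factor, are read away from each other from a shared stretch of 224 bases, and SPP382 and the gene on the other side, DCK1, were looked at after the ATG17 values were seen. SPP382 had 90.4, 93.6, 83.7 and 89.7 CPM in atg41Δ, 24.6, 31.3, 40.4 and 35.9 CPM in atg1Δ, and 38.1, 36.0, 37.1 and 38.7 CPM in WT. On the log2 scale it rose by 1.25 ± 0.11 in atg41Δ against WT (edgeR adjusted p = 1.49e-07), and in that comparison DCK1, a further 221 bases beyond the other end of ATG17, was at -0.11 ± 0.05 and did not pass (edgeR adjusted p = 0.0695). DCK1 passed as lower with libraries scaled to equal totals (-0.25, edgeR adjusted p = 0.0013), with the trend described for ATG13 removed (-0.14, edgeR adjusted p = 0.0347) and without replicate 3 of atg41Δ (-0.15, edgeR adjusted p = 0.0141) or of WT (-0.14, edgeR adjusted p = 0.0483). The shared stretch is printed because both genes on it were higher in atg41Δ. It is the plus strand of R64, from the base after ATG17 to the base before SPP382, at 34.8% G and C, and is all in lower case since 0 of the 6 motifs searched below matched in it.
ATG17 to SPP382, chrXII:973171-973394: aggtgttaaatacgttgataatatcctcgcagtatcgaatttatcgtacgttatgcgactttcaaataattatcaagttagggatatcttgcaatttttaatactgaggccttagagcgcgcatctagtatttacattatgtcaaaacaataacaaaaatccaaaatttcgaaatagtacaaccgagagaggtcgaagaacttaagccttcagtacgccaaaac

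ATG31 (YDR022C, chromosome IV, 488072 to 488662, minus strand) encodes the scaffold subunit that bridges Atg17 and Atg29. It had 37.7, 36.3, 40.1 and 36.1 CPM in atg41Δ, 21.2, 24.5, 28.9 and 27.4 CPM in atg1Δ, and 25.8, 27.6, 29.4 and 26.1 CPM in WT. The atg41Δ libraries were all above those of the other strains, whose ranges overlapped. It rose 1.38-fold against WT (log2 fold change 0.46 ± 0.09, edgeR adjusted p = 2.77e-04) and 1.47-fold against atg1Δ (0.56 ± 0.09, edgeR adjusted p = 6.57e-05).

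ATG29 (YPL166W, chromosome XVI, 237338 to 237979, plus strand) encodes the third scaffold subunit. It had 24.8, 20.2, 20.3 and 22.5 CPM in atg41Δ, 15.2, 18.6, 20.4 and 21.4 CPM in atg1Δ, and 20.2, 20.1, 22.7 and 20.0 CPM in WT. The 3 ranges overlapped, and no comparison passed. Against WT the log2 fold change in atg41Δ was 0.08, with a 95% interval of -0.14 to 0.31, so that a rise of the size seen in ATG17 lay outside it. With the trend with coding length and base composition removed, ATG29 passed as higher in atg41Δ, at 0.42 against WT (edgeR adjusted p = 0.00122) and 0.40 against atg1Δ (edgeR adjusted p = 0.00189). It also passed against atg1Δ without replicate 4 of atg1Δ (0.28, edgeR adjusted p = 0.0404). ATG29 overlaps the gene SET6 on the other strand by 24 bases, where reads of the 2 genes cannot be told apart.

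The proportions of the scaffold transcripts differed between atg41Δ and the other strains, whose ranges overlapped for each ratio. The authors' TPM (a level scaled by gene length and library size) allow levels to be compared between genes. The ratio of ATG17 to ATG29 TPM was 3.22 ± 0.42 in atg41Δ, 1.12 ± 0.19 in atg1Δ and 1.31 ± 0.02 in WT (SD, n = 4 each). The ratio of ATG17 to ATG31 TPM was 1.71 ± 0.26 in atg41Δ, 0.754 ± 0.12 in atg1Δ and 0.903 ± 0.03 in WT. For both ratios every atg41Δ library lay above every library of the other strains. The ratio of ATG31 to ATG29 TPM was 1.90 ± 0.22 in atg41Δ, 1.49 ± 0.07 in atg1Δ and 1.45 ± 0.05 in WT. These ratios restate the levels above and were not tested.

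**Figure D3:**
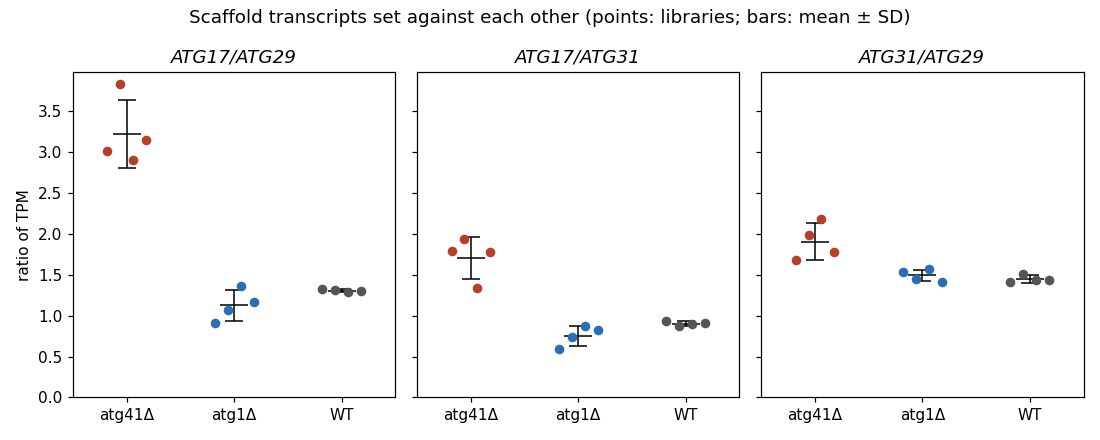
Ratio of TPM (vertical axis, from 0) between pairs of the 3 scaffold genes in each library of atg41Δ, atg1Δ and WT, with the mean ± SD as bars. ATG17 over ATG29 averages 3.22 in atg41Δ, 1.12 in atg1Δ and 1.31 in WT.

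ATG11 (YPR049C, chromosome XVI, 661137 to 664673, minus strand) encodes the scaffold that ties cargo receptors to Atg1. It had 69.4, 67.7, 76.1 and 71.0 CPM in atg41Δ, 46.5, 60.8, 66.5 and 52.9 CPM in atg1Δ, and 67.8, 67.4, 69.1 and 67.9 CPM in WT. The atg41Δ and WT ranges overlapped, and the atg1Δ libraries were all below both. In atg41Δ against WT the log2 fold change was 0.06, with a 95% interval of -0.12 to 0.25, and with libraries scaled to equal totals it was -0.08. Against atg1Δ it was higher in atg41Δ (0.33 ± 0.09, edgeR adjusted p = 0.0046). In atg1Δ against WT it was -0.26 ± 0.09 and did not pass over all genes (edgeR adjusted p = 0.108), but it passed as lower without replicate 3 of atg1Δ (-0.36, edgeR adjusted p = 0.0135). It was the 1 gene of the 9 to pass under any alternative in that comparison.

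The genes of Atg9 movement were next. ATG9 (YDL149W, chromosome IV, 184925 to 187918, plus strand) had 64.0, 58.4, 61.4 and 63.1 CPM in atg41Δ, 34.8, 45.5, 49.6 and 48.8 CPM in atg1Δ, and 47.5, 51.8, 53.5 and 55.5 CPM in WT. The atg41Δ libraries lay above those of both other strains. The rise against WT was 1.19-fold (log2 fold change 0.25 ± 0.09, edgeR adjusted p = 0.0293), and that against atg1Δ was 1.38-fold (0.46 ± 0.09, edgeR adjusted p = 5.39e-04). The call against WT was lost without replicate 1 or 4 of atg41Δ, replicate 1, 2 or 3 of WT or replicate 2 of atg1Δ (edgeR adjusted p = 0.0508 to 0.115) and at equal totals (0.11, edgeR adjusted p = 0.42), while the call against atg1Δ held under every alternative tried.

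ATG2 (YNL242W, chromosome XIV, 191324 to 196102, plus strand) encodes the lipid transfer protein. It had 75.6, 71.1, 74.3 and 70.7 CPM in atg41Δ, 51.1, 58.1, 57.2 and 62.0 CPM in atg1Δ, and 57.2, 62.0, 58.1 and 62.8 CPM in WT. Again the atg41Δ libraries were the highest and the other strains overlapped. ATG2 rose 1.21-fold against WT (0.28 ± 0.06 on the log2 scale, edgeR adjusted p = 0.00101) and 1.28-fold against atg1Δ (0.35 ± 0.06, edgeR adjusted p = 1.69e-04). At equal totals the call against WT was lost (0.14, edgeR adjusted p = 0.112).

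ATG18 (YFR021W, chromosome VI, 194812 to 196314, plus strand) encodes the phosphoinositide-binding partner of Atg2, which also acts in vacuole shape. It had 63.5, 63.1, 68.5 and 73.9 CPM in atg41Δ, 53.4, 55.9, 48.4 and 55.6 CPM in atg1Δ, and 50.8, 47.0, 46.3 and 47.9 CPM in WT. The atg41Δ libraries were above those of both other strains, whose ranges overlapped. ATG18 rose 1.40-fold in atg41Δ against WT (0.49 ± 0.07 on the log2 scale, edgeR adjusted p = 1.61e-05) and 1.26-fold against atg1Δ (0.34 ± 0.07, edgeR adjusted p = 4.69e-04). It was the 1 gene of the 9 with a fold change above 0 in atg1Δ against WT, at 0.15 with a 95% interval of 0.01 to 0.29 (edgeR adjusted p = 0.211), which did not pass over all genes.

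ATG41 itself (YPL250C, chromosome XVI, 74309 to 74719, minus strand) could be compared only between atg1Δ and WT. It had 521.6, 721.7, 740.6 and 831.0 CPM in atg1Δ and 726.9, 660.1, 686.2 and 761.6 CPM in WT. The atg1Δ libraries lay on both sides of the WT range, with replicate 1 far below it. The log2 fold change was -0.01 with a 95% interval of -0.26 to 0.24, and without replicate 1 of atg1Δ it was 0.11 ± 0.06 (edgeR adjusted p = 0.347).

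In the comparison of atg1Δ with WT, 8 of the 9 genes had a log2 fold change below 0, with a median of -0.13 against -0.01 for all genes. The values ran from -0.33 for ATG17 to 0.15 for ATG18, and 0 passed. Lists of other autophagy genes, described below, had medians of -0.11 (Atg8 and Atg12 conjugation), -0.11 (lipid kinase) and -0.07 (selective autophagy). The medians were -0.02 for vacuolar breakdown and 0.0007 for further genes of Atg9 traffic. In replicate 1 of atg1Δ, 8 of the 9 were below the WT mean on the log2 scale, by -0.23 for ATG2 to -0.97 for ATG17, while the median of all genes in that library was at -0.04. Without that library 7 of the 9 were below 0 and the median was -0.04. With the trend with coding length and base composition removed ATG29, ATG31 and ATG2 turned to just above 0. The comparison of atg41Δ with atg1Δ kept its 6 higher and 0 lower without that library.

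**Figure D4:**
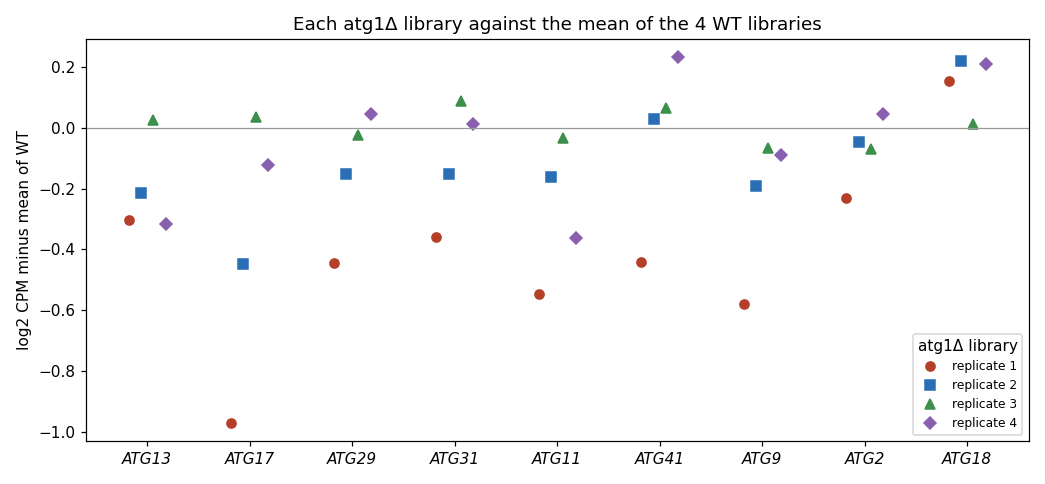
Log2 CPM of each atg1Δ library minus the mean of the 4 WT libraries (vertical axis) for the 9 genes intact in atg1Δ. Replicate 1 is the lowest point for 7 of the 9 genes and reaches -0.97 for ATG17.

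Set beside each other per length, the genes covered a wide range. In WT, ATG41 was at 2031 ± 110 TPM (SD, n = 4), at percentile 99.2 of all features. The next was ATG31 at 49.5 ± 4.2 TPM, then ATG17 at 44.7, ATG13 at 38.9, ATG1 at 35.1, ATG29 at 34.2, ATG18 at 30.5, ATG11 at 17.7, ATG9 at 16.1 and ATG2 at 11.5 TPM. Neighbours from ATG31 down to ATG29 in that order overlapped in their ranges, as did ATG11 and ATG9, while ATG41, ATG18 and ATG2 were each apart from the genes beside them. The core genes other than ATG41 thus lay between percentile 15.9 for ATG2 and 59.1 for ATG31.

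The order differed in atg41Δ. ATG17 came first, at 116.0 ± 15.6 TPM, at percentile 80.2, then ATG31 at 68.1 ± 2.3 and ATG18 at 42.7 ± 3.4 TPM, while ATG1 was at 28.3 and ATG13 at 26.9 TPM. ATG17 and ATG31 did not overlap there, as they did in WT. ATG2 was again the lowest, at 13.9 TPM. In atg1Δ, ATG41 was at 1906 ± 438 TPM, followed by a run of 5 genes whose neighbours overlapped, ATG31 at 43.7, ATG17 at 33.7, ATG13 at 31.9, ATG18 at 31.8 and ATG29 at 29.3 TPM.

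**Figure D5:**
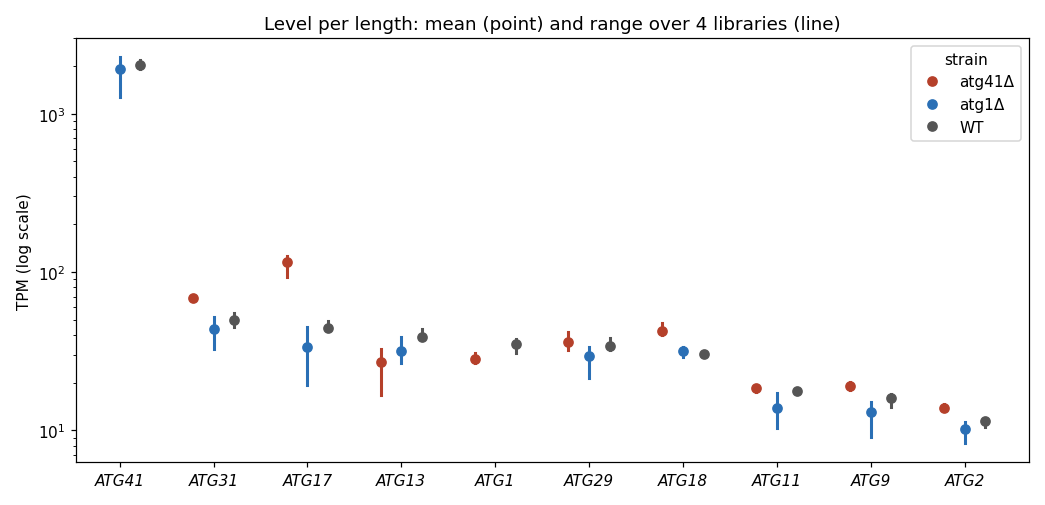
TPM on a log axis, as the mean (point) and range (line) of 4 libraries in atg41Δ, atg1Δ and WT, in the order of the WT means. ATG41 stands at 1906 TPM in atg1Δ and 2031 TPM in WT, and ATG17 in atg41Δ (116.0 TPM) is above every other gene of that strain in the plot.

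The 500 bases upstream of each start codon were searched for 6 short motifs of factors known to act on nutrient and stress genes. On both strands, GATAAG, bound by GATA factors such as Gat1 and Gln3, was found upstream of 4 of the 10 genes (ATG29, ATG9, ATG2 and ATG18) and of 22.8% of the 5983 genes searched. TGACTC, bound by Gcn4, was upstream of 3 (ATG29, ATG31 and ATG18) and of 12.7% of genes. AGGGG, bound by Msn2 and Msn4, was upstream of 4 (ATG13, ATG29, ATG9 and ATG18) and of 34.1%. CACGTG, bound by Cbf1, was upstream of ATG13 and ATG41 and of 6.2% of genes, and CTGTGG, bound by Met31 and Met32, of ATG29 and ATG41 and of 13.2%. Cbf1, Met31 and Met32 carry the activator Met4 to sulfur genes. GGCGGC, bound by Ume6, matched none of the 10 and 9.6% of genes. A match is a description of the letters and not a site of binding.

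Windows of 30 bases are printed for 2 sets, read from R64 in the direction of the gene, with the motif in capitals. The first are the matches of the Met4 partner motifs upstream of ATG41, the deleted gene, and of ATG13, which was lower without it.
ATG41 CACGTG, 368 bases upstream, chrXVI:75070-75099, minus strand: acagaataaacaCACGTGaccccgtcagtg
ATG41 CTGTGG, 432 bases upstream, chrXVI:75134-75163, minus strand: tctggaaccaagCTGTGGcgctgcgtggaa
ATG13 CACGTG, 347 bases upstream, chrXVI:906859-906888, plus strand: ataaagggaacaCACGTGaaagtgaaggac
Both sets were chosen with the results seen, and a link between motif and change was not tested. CTGTGG is also 432 bases upstream of ATG29, which did not pass in atg41Δ against WT in the main fit. Neither CACGTG nor CTGTGG matched upstream of ATG1, which was lower in that comparison. GATAAG is 57 bases upstream of ATG29 as well. It has no match upstream of ATG17 or ATG31, which were higher. The second set are the GATAAG matches upstream of the genes of Atg9 movement that were higher in atg41Δ.
ATG9 GATAAG, 56 bases upstream, chrIV:184857-184886, plus strand: gtatctcactttGATAAGaagacatttaag
ATG2 GATAAG, 406 bases upstream, chrXIV:190906-190935, plus strand: gagattgggcgaGATAAGaaggcatgccta
ATG18 GATAAG, 249 bases upstream, chrVI:194551-194580, plus strand: atgacaaaagacGATAAGttacttctatta

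Of 13 genes for factors that control autophagy genes, 3 were higher and 6 lower in atg41Δ than in WT (median -0.09), beside 65.9% of all genes passing there, 29.9% as higher and 35.9% as lower, so this count is near that of all genes. GAT1, a GATA activator, had 323.1, 349.8, 313.9 and 369.3 CPM in atg41Δ and 162.6, 146.7, 143.7 and 168.7 CPM in WT, which is 1.12 ± 0.07 higher on the log2 scale (edgeR adjusted p = 6.9e-09). GLN3, whose product binds the same motif, was lower (-0.54 ± 0.07, edgeR adjusted p = 5.67e-06). Of the other GATA factor genes in the list, DAL80 was higher (0.84 ± 0.22, edgeR adjusted p = 0.00379) and GZF3 lower (-0.20 ± 0.06, edgeR adjusted p = 0.0116). RPH1, a repressor of several ATG genes, had 33.7, 38.6, 36.5 and 43.2 CPM in atg41Δ and 91.1, 90.9, 90.9 and 89.6 CPM in WT, and its log2 fold change was -1.25 ± 0.11 (edgeR adjusted p = 3.98e-07). For GAT1 and RPH1 the 2 strains did not overlap. None of the 13 passed in atg1Δ against WT, where 3.73% of all genes did. Of 18 genes of the kinase pathways upstream of Atg13, 4 were higher and 7 lower in atg41Δ than in WT, again near the share of all genes (65.9%), and 0 passed in atg1Δ, where 3.73% of all genes did. The largest changes were falls of TPK3 (-0.52 ± 0.06, edgeR adjusted p = 3.45e-06), a catalytic subunit of protein kinase A, and RAS2 (-0.51 ± 0.07, edgeR adjusted p = 2.46e-05), the GTPase that activates adenylate cyclase.

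The rest of the pathway was read from lists of its later steps, whose counts stand beside the 65.9% of all genes that passed in atg41Δ against WT (29.9% higher, 35.9% lower) and the 3.73% in atg1Δ against WT. Of 4 further genes of Atg9 traffic, ATG27, a membrane protein that travels with Atg9, was higher in atg41Δ (0.15 ± 0.06, edgeR adjusted p = 0.0268) and YPT1, a Rab GTPase, lower (-0.14 ± 0.06, edgeR adjusted p = 0.0471), and 0 passed in atg1Δ. The call of ATG27 held under 14 of 20 alternatives, with a lowest log2 fold change of 0.016 and a largest edgeR adjusted p of 0.769, and that of YPT1 under 7 of 20, with a largest edgeR adjusted p of 0.143. Of 8 genes of Atg8 and Atg12 conjugation 1 was higher and 3 were lower in atg41Δ, with ATG16 (-0.76 ± 0.13, edgeR adjusted p = 1.29e-04) and the E1 enzyme gene ATG7 (-0.46 ± 0.10, edgeR adjusted p = 0.00118) the lowest. Of 5 genes of the autophagy lipid kinase 2 were higher and 2 lower in atg41Δ, with its specific subunits ATG38 (-0.56 ± 0.15, edgeR adjusted p = 0.00519) and ATG14 (-0.49 ± 0.11, edgeR adjusted p = 0.00137) down. The call of ATG38 held under 18 of 20 alternatives and was lost where the trend with coding length and base composition was removed (-0.21 without and -0.20 with a replicate block, edgeR adjusted p = 0.107 and 0.133). In atg1Δ against WT 1 gene of each of these last lists was lower, ATG16 at -0.55 (edgeR adjusted p = 0.0296) and ATG38 at -0.65 (edgeR adjusted p = 0.0335). Both of these calls were lost without replicate 1, 2 or 4 of atg1Δ or replicate 2, 3 or 4 of WT and in a fit of the 2 strains alone (edgeR adjusted p = 0.0567 each). The ATG16 call was lost also with that trend removed (edgeR adjusted p = 0.0796, and 0.122 with the replicate block) and held under 10 of 19 alternatives. The ATG38 call was lost also under the replicate block (edgeR adjusted p = 0.0661) and without replicate 4 of atg41Δ (edgeR adjusted p = 0.0514) and held under 11 of 20, with a largest edgeR adjusted p of 0.114.

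Of 5 genes of vacuolar breakdown 3 were higher and 2 lower in atg41Δ than in WT, with PRB1, vacuolar proteinase B, up by 1.63 ± 0.17 (edgeR adjusted p = 4.45e-06) and ATG15, the lipase of autophagic bodies, by 0.60 ± 0.05 (edgeR adjusted p = 2.06e-07). Of 11 genes of selective autophagy 2 were higher and 0 lower, a smaller share than the 65.9% of all genes, and the difference in share was not tested. They were CUE5, a receptor for ubiquitin-marked cargo (0.61 ± 0.06, edgeR adjusted p = 9.93e-07), and ATG33, which acts in mitophagy (0.23 ± 0.09, edgeR adjusted p = 0.032). In atg1Δ against WT 0 passed in both lists. The call of ATG33 held under 14 of 20 alternatives, with a largest edgeR adjusted p of 0.419.

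Genes with the most similar course across libraries were named by the smallest root mean square difference of centred log2 CPM. For ATG1, over the 8 libraries of atg41Δ and WT, they were MIL1 (0.0419), MCM6, a subunit of the replicative helicase (0.045), and MRS6, a Rab escort protein (0.0456), where the median over all genes was 0.254. For ATG41, over the 8 libraries of atg1Δ and WT, they were YJL163C (0.0337), NNR2 (0.0368) and ALD2, an aldehyde dehydrogenase (0.0378), where the median was 0.218. The spread in these units was 0.172 for ATG1 and 0.186 for ATG41, which is the difference that a gene with no variation would have from each. Replicate 1 of atg1Δ was the farthest library of ATG41.

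The authors' deposited table of each comparison gave the same counts for these genes at a false discovery rate under 0.05. In the authors' deposited table for atg41Δ against WT, 5 of the 9 were higher and 2 lower, with ATG17 at 1.40, where 68.3% of its genes passed. In the authors' deposited table for atg1Δ against WT 0 were called, where 4.81% of its genes passed. In that for atg41Δ against atg1Δ 6 were higher and 0 lower, where 55.9% passed. The signs in the authors' deposited tables were turned where needed so that the deleted gene was lower in its deletion strain.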

How the data were processed

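RNA-seq libraries of 3 yeast strains were compared, with 4 libraries each. The authors deposited expected counts and TPM per gene, and comparison tables with a log2 fold change and a false discovery rate (adjusted p-value). Per the submitters' processing notes the tools included RSEM, STAR, BWA and edgeR, without their roles. Tool versions, genome build and annotation were not given in the sources used. A further 12 per-sample columns had no counterpart among the samples and were left unused. Fractional values made up 18.4% of the expected counts, and these were rounded. The library kit named in the labels' protocols does not mark strand.

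Counts were filtered with filterByExpr (minimum count 10, minimum total 15), scaled with TMM and fitted in 1 model of all 12 libraries with strain as the factor (edgeR 4.0.16, R 4.3.3, robust quasi-likelihood F test, two-sided). P-values were adjusted by Benjamini-Hochberg over 6195 genes at 0.05. The standard error is the log2 fold change over the square root of F, and the 95% interval uses the fit's degrees of freedom. The common biological coefficient of variation was 9.37%. CPM use the TMM factors. The code was tested on simulated data. Positions, strands, names and sequences are from RefSeq R64, which matched all but 674 of 6660 features, and 457 of the genes tested lack a length and base composition.

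Named genes are the 10, the up to 2 largest called changes per list in atg41Δ against WT, and the 3 most similar genes for ATG1 and ATG41. SPP382, DCK1, the motifs and the values of GLN3, DAL80 and GZF3 were added after values were seen. The members and lists were chosen with earlier results of these data known. Alternatives were other scalings, no filter, DESeq2 1.42.0, fits of the compared strains alone, a replicate block, removal of each library's spline trend with coding length and base composition, and each library left out in turn.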

Additional observations from a re-analysis of the deposited data

Results flagged for a closer look

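ATG29 in WT had 1 library apart from the other 3: replicate 3 was at 22.7 CPM, while the others were at 20.0 to 20.2 CPM. The gap passed Dixon's critical value of 0.829 for 4 samples, and it was the 1 such case among 28 groups of 4 libraries examined, where chance gives about 1 in 20.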

How the results depend on the processing

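The 6 higher calls of atg41Δ against atg1Δ and the calls of ATG1, ATG13, ATG17, ATG31 and ATG18 in atg41Δ against WT kept direction and threshold under all 20 alternatives. ATG17 ranged from 1.24 to 1.60 on the log2 scale against WT. At equal totals, which put the median of all genes at -0.17 in atg41Δ against WT, the higher genes numbered 3 instead of 5, and ATG29 (-0.055) and ATG11 (-0.0755) turned. With 1 library left out they numbered 4 or 5. Genes called lower in atg41Δ against atg1Δ numbered 1 in place of 0 (ATG13) after removal of the trend with coding length and base composition, and 0 to 1 with 1 library left out. In atg1Δ against WT they were 0 to 1 (ATG11) with 1 library left out. That comparison called 231 genes in all, against 378 at equal totals, 396 in DESeq2, 143 with the trend removed, 114 with that and the replicate block, 69 in a fit of the 2 strains, and 53 to 457 with 1 library left out. The cause was not tested. There, ATG41 was at 0.0093 with DESeq2 size factors and 0.0092 in DESeq2, and ranged from -0.0997 without atg1Δ replicate 4 to 0.11 without atg1Δ replicate 1. ATG29 (0.017), ATG31 (0.026) and ATG2 (0.048) turned with the trend removed, as they did with the replicate block added to it (0.014, 0.021 and 0.046).

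Libraries with the same number did not deviate together (correlations of deviations from strain means of -0.166 to 0.164, best with the own number in 4 of 24 cases). No pairing by number was thus seen, but with 4 libraries per strain a weak pairing could go unseen. With a replicate block 4000, 209 and 3864 genes were called in atg41Δ against WT, atg1Δ against WT and atg41Δ against atg1Δ, and no call of the 10 genes changed. CPM are not per length and gave no alternative for the TPM levels.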
